A study of Mus musculus with 8 samples.

Results

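The 10 genes described here, *Lgr5*, *Ascl2*, *Smoc2*, *Lrig1*, *Axin2*, *Rnf43*, *Znrf3*, *Nkd1*, *Sox9* and *Ephb2*, were taken by name as markers of the colonic crypt stem cell and as targets of Wnt signalling. The rule that lists them uses no measured value, but the list was drawn up with earlier results of these data known. All 10 were found among the 26008 genes of the expression table, and all 10 passed the filter on low values, together with 19127 genes in all. They were measured by RNA-seq in colonic biopsies of 8 male bone marrow chimeras, 4 that received *penk*-/- marrow and 4 that received *penk*+/+ marrow, with 1 library per mouse. All recipients were wild-type C57BL/6JRj males irradiated at a lethal dose when 7 weeks old, and all donors were males aged 9 to 11 weeks. The *penk*-/- donors lack *Penk*, the gene of the opioid precursor proenkephalin, and the *penk*+/+ donors were wild-type littermates. The colon was sampled 18 weeks after engraftment. The deletion is therefore carried by marrow-derived cells, whereas the epithelium, stroma, muscle and enteric neurons of both groups are those of a wild-type, irradiated host. The study used these chimeras to ask what enkephalins from immune cells do in the gut, and the comparison below asks whether transcripts of the crypt base differ between the 2 kinds of recipient.

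The epithelium of the colon is renewed throughout life by stem cells at the crypt base, which are kept in that state by Wnt ligands and R-spondins secreted mostly by stromal cells around the crypt. Wnt binding to Frizzled and Lrp receptors spares beta-catenin from degradation, and beta-catenin then acts with TCF/LEF factors on target genes. Several of these targets code for inhibitors of the same pathway, so that their transcript level is widely used as a reading of Wnt activity.

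The biopsies yielded 33.1 M to 50.7 M recovered reads per library (median 38.5 M, where M stands for 1000000 reads). *Penk* itself, which the host's own cells also express, was at 453 to 616 normalized counts in *penk*-/- and 473 to 636 in *penk*+/+ chimeras, so that its level in whole colon does not check the labels. Markers of colonic epithelium were abundant in all 8 libraries, with *Epcam* at 48569 normalized counts or more. *Pbsn*, a gene of the prostate, reached 105658 in *penk*-/- replicate 3 and 111024 in *penk*+/+ replicate 4. It was at 7638 and 4803 in *penk*-/- replicates 2 and 4, and at 13425 and 2398 in *penk*+/+ replicates 1 and 2. Only in *penk*-/- replicate 1 and *penk*+/+ replicate 3 was it at 0. Results below are given without the 2 libraries highest in *Pbsn* where that matters, which does not remove *Pbsn* from the libraries kept.

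The sequences before the canonical start site of 3 genes are shown. *Ascl2* was chosen as the member whose genotypes lay furthest apart. *Axin2* and *Nkd1* were the members with a match to a TCF/LEF motif next to the start site. Sequences are from GRCm39, 5′ to 3′ on the strand of the gene, from 165 to 16 bases before the start site of the GENCODE M39 canonical transcript, and capitals mark the match. Other transcripts of *Axin2* and *Nkd1* begin further upstream, so that the *Axin2* stretch lies wholly, and the *Nkd1* stretch at its 3′ end, inside the gene bounds given below.
Axin2, chr11:108811473-108811622, plus strand: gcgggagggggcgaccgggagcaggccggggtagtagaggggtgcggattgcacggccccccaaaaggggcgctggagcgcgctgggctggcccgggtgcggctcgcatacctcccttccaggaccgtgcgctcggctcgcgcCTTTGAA
Nkd1, chr8:89247760-89247909, plus strand: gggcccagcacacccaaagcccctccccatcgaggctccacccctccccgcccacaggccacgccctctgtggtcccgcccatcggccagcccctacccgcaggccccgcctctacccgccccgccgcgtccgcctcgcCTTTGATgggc
Ascl2, chr7:142523022-142523171, minus strand: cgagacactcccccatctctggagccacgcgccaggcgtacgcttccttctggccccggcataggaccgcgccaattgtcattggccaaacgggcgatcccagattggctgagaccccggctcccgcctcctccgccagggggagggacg
The motif CTTTGAA was searched on both strands of the 250 bases before each start site, as were the variant motif CTTTGAT, the variant motif CTTTGTA and the variant motif CTTTGTT. These 4 motifs share their first letters, so that on 1 strand at most 1 of them matches at a given position. The match begins 22 bases before the canonical start site in *Axin2* and 26 bases before it in *Nkd1*, in both genes inside the bounds of the annotated gene. No match lies in the window of *Ascl2* or of the other 7 members. Thus 2 of 10 members held a match (20.0%), against 3184 of 21770 protein-coding promoters of the same length (14.6%). The windows of the members were rich in G and C, with a median of 66.2% against 53.2% over all these promoters. The matches are a description of letters and do not show binding.

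Expressed per kilobase of exon, the members differed widely in level. The length used is that of the union of all annotated exons of a gene, not of the transcript expressed, so that the order depends on the annotation. *Lrig1* had the highest level, with a mean of 842 normalized counts per kilobase over the 8 libraries, followed by *Sox9* at 483 and *Rnf43* at 295. The ranges of these 3 genes over the libraries overlapped neither each other nor the next gene, *Ephb2* at 211. From there, *Smoc2* (172), *Axin2* (147), *Znrf3* (101), *Ascl2* (95.9), *Nkd1* (64.7) and *Lgr5* (42.7 normalized counts per kilobase) followed in an order in which the range of each gene overlapped that of its neighbour. *Lgr5*, the receptor by which crypt stem cells are most often defined, thus had the lowest mean level per length of the 10 members, with a range that overlapped that of *Nkd1*. Not divided by length, the mean of *Ascl2* (156 normalized counts) was below that of *Lgr5* (438). For comparison, the pan-epithelial gene *Epcam* was at 23719 and the proliferation gene *Mki67* at 608 normalized counts per kilobase.

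**Figure D1:**
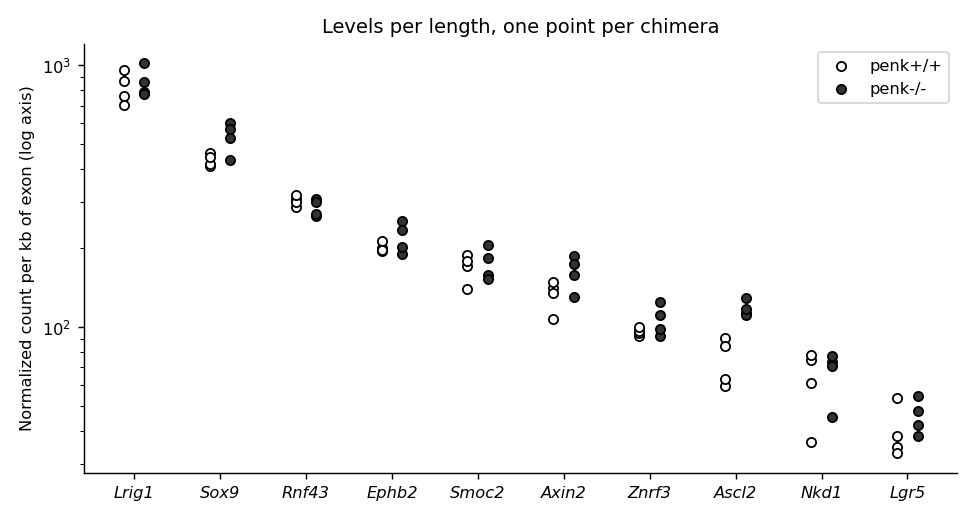
Level of each member per chimera, in normalized counts per kilobase of exon on a log axis, ordered by the mean over the 8 libraries. Open circles are *penk*+/+ and filled circles *penk*-/- chimeras, and the order runs from *Lrig1* (842) to *Lgr5* (42.7), with the filled and open circles apart only for *Ascl2*.

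*Ascl2* was the member in which the genotypes lay furthest apart, and it was the only one whose groups did not overlap, that is 1 of 10 members against 5.63% of all genes tested (2.89% higher and 2.74% lower in *penk*-/-). Its mean was 1.58 times as high in *penk*-/- as in *penk*+/+ chimeras, while *Sox9* and *Axin2* were 1.23 and 1.22 times as high and the other 7 members lay between 0.940 and 1.15 times. By limma over all genes, 0 of the 10 members passed an adjusted p below 0.05, nor did any of the 19127 genes tested (0.0%). At an unadjusted p below 0.05, the members *Ascl2* and *Sox9* were found, that is 2 of 10, both higher in *penk*-/-, against 1842 genes in all (9.63%), of which 822 were higher in *penk*-/- (4.3%). With the reads recovered from the normalized counts, DESeq2 called 1 member, *Ascl2*, among 235 genes at an adjusted p below 0.05 (1.23%, with 0.471% higher in *penk*-/-), and edgeR called 0 members. The median SD within genotypes over the members was 0.191 on the log2 scale, from 0.088 for *Rnf43* to 0.44 for *Nkd1*. This SD describes single libraries and is not the error of a difference between 2 means. The SE of the log2 fold change was 0.07 for *Rnf43* to 0.25 for *Nkd1*, and the median log2 fold change of the members was 0.13.

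The log2 fold change, *penk*-/- over *penk*+/+, was above 0 for 9 of the 10 members, against 51.1% of all genes tested, with a median of 0.13 against 0.01 over all genes. The members share libraries and cells and are not independent replicates, and this count carries no test. Since these are biopsies of whole tissue, fewer cells of a type and less RNA per cell cannot be told apart in any of these values.

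**Figure D2:**
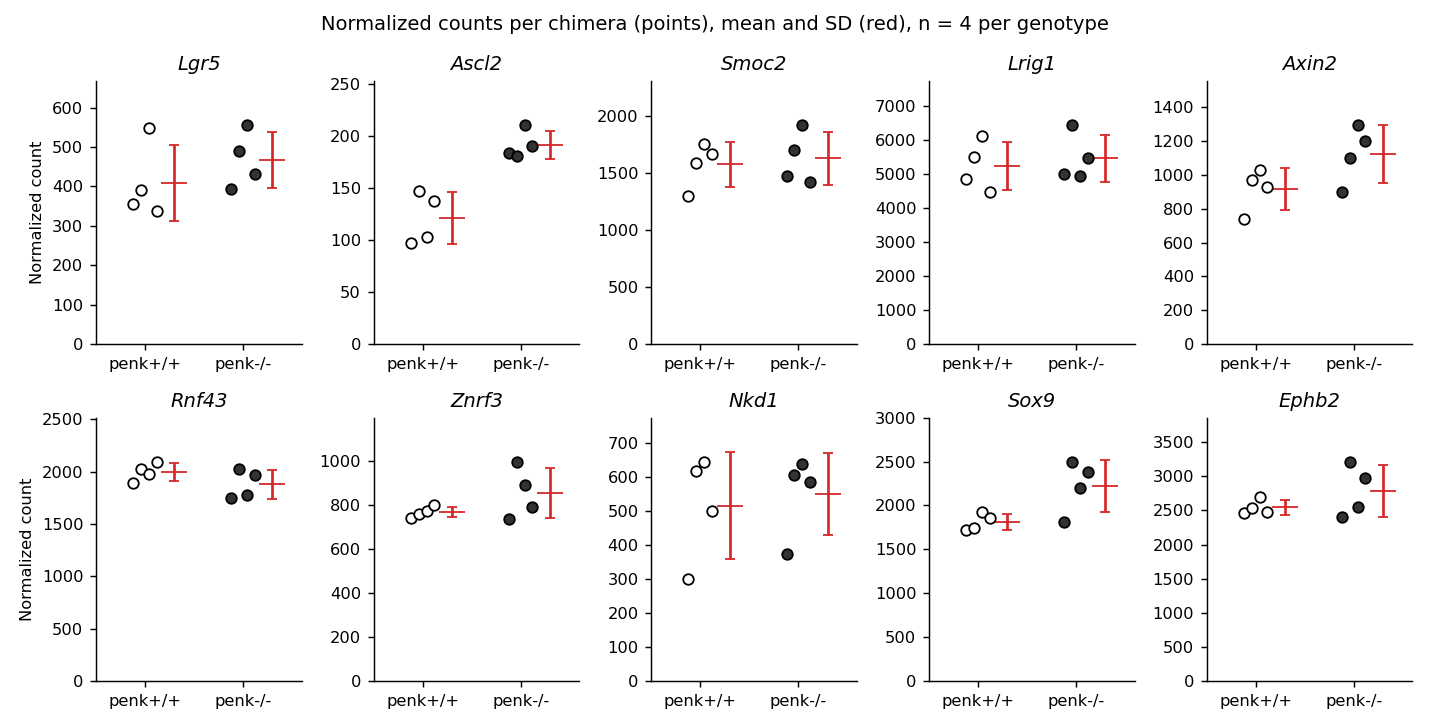
Normalized counts of the 10 members in each chimera (points, open for *penk*+/+ and filled for *penk*-/-), with mean and SD in red (n = 4 per genotype) and each axis starting at 0. The 4 *penk*-/- values of *Ascl2*, 181 to 211, lie above all 4 *penk*+/+ values, 97.1 to 147, whereas the groups overlap in the 9 other genes.

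Among the stem cell markers, *Ascl2* codes for a transcription factor that works in crypt base stem cells and is itself a Wnt target. The gene lies on chr7:142520564-142523006 of GRCm39 (minus strand). *Ascl2* was at 184, 181, 211 and 190 normalized counts in *penk*-/- replicates 1 to 4, and at 97.1, 147, 103 and 137 in *penk*+/+ replicates 1 to 4. All *penk*-/- values were above all *penk*+/+ values, as 552 of all genes tested also were. The *penk*-/- values lay close together (191 ± 13.5, SD, n = 4), while the *penk*+/+ values spread more widely (121 ± 24.8, SD, n = 4). The log2 fold change was 0.67 (SE 0.16, 95% interval 0.32 to 1.03), and 165 of the genes tested (0.863%) had a fold change at least as large. The adjusted p was 0.339 by limma, 0.324 by edgeR and 0.0179 by DESeq2, and by limma *Ascl2* held rank 89 among all genes. In the exact permutation test over the 70 assignments of mice to genotypes (two-sided), p was 0.0286, the smallest that 4 against 4 mice can give. The gene was covered by 78 to 290 reads per library. Because its groups did not overlap with all libraries kept, leaving a library out could not make them overlap. Its log2 fold change was 0.58 to 0.78 when 1 library was left out, and 0.69 without the 2 libraries high in *Pbsn*.

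*Lgr5*, the R-spondin receptor of crypt base stem cells, lies on chr10:115286216-115423685 (minus strand). It was at 393, 491, 556 and 431 normalized counts in *penk*-/- and at 356, 392, 548 and 337 in *penk*+/+ chimeras. The *penk*-/- chimeras ranked above 3 of the 4 *penk*+/+ chimeras, and *penk*+/+ replicate 3 was within the range of *penk*-/-. The means were 468 ± 71.4 in *penk*-/- and 408 ± 95.9 in *penk*+/+ (SD, n = 4 each), and the log2 fold change was 0.21 (95% interval -0.16 to 0.58, limma adjusted p = 0.728). Without *penk*+/+ replicate 3 the groups did not overlap, with 393 as the lowest *penk*-/- and 392 as the highest *penk*+/+ value, and the log2 fold change was 0.36 (limma adjusted p = 0.505). Without the 2 libraries high in *Pbsn*, it was 0.04. The size of the difference in *Lgr5* thus depended on the libraries kept.

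*Smoc2*, a secreted matricellular protein of the stem cell signature, was at 1471, 1699, 1918 and 1416 normalized counts in *penk*-/- and at 1296, 1586, 1752 and 1663 in *penk*+/+ chimeras. *Lrig1*, a membrane protein that restrains ErbB receptors and marks stem and progenitor cells, was at 4985, 6433, 4931 and 5460 in *penk*-/- and at 4849, 5491, 6094 and 4474 in *penk*+/+ chimeras. Both genes overlapped widely between the genotypes. Their log2 fold changes were 0.05 (95% interval -0.22 to 0.32) and 0.06 (95% interval -0.19 to 0.32), with limma adjusted p of 0.938 and 0.903. *Smoc2* is on chr17:14499735-14625074 (plus strand) and *Lrig1* on chr6:94581510-94677242 (minus strand). *Lrig1* overlaps *Slc25a26* on the opposite strand, which had a mean of 241 normalized counts, and the strand setting used in counting was not stated.

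Among the feedback inhibitors of the Wnt pathway, *Axin2*, a scaffold of the complex that degrades beta-catenin and the most commonly used Wnt target, lies on chr11:108811169-108841609 (plus strand). It was at 900, 1098, 1295 and 1201 normalized counts in *penk*-/- and at 741, 973, 1028 and 931 in *penk*+/+ chimeras. In 3 of 4 *penk*-/- chimeras the value was above the highest *penk*+/+ value, and replicate 1 of each genotype was the lowest of its group. The means were 1123 ± 170 and 918 ± 125 (SD, n = 4 each), with a log2 fold change of 0.29 (SE 0.13, 95% interval -0.01 to 0.59). This difference did not pass (limma adjusted p = 0.536, DESeq2 adjusted p = 0.392, exact permutation p = 0.143, two-sided). When 1 library was left out, the log2 fold change of *Axin2* was 0.19 (without *penk*+/+ replicate 1) to 0.39 (without *penk*-/- replicate 1, limma adjusted p = 0.312). Only in the latter case did the groups not overlap, since it removes the 1 *penk*-/- library that was not above all *penk*+/+ values.

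*Rnf43* and *Znrf3* code for membrane E3 ubiquitin ligases that remove Frizzled receptors and are held in check by R-spondins with Lgr receptors. *Rnf43* (chr11:87553548-87626377, plus strand) was at 1744, 2022, 1774 and 1971 normalized counts in *penk*-/- and at 1889, 2029, 1979 and 2096 in *penk*+/+ chimeras. It was the only member with a lower mean in *penk*-/- (1878 ± 139 against 1998 ± 87.3, SD, n = 4 each), with a log2 fold change of -0.09 (95% interval -0.24 to 0.06, limma adjusted p = 0.708). *Znrf3* (chr11:5226324-5394939, minus strand) was at 739, 998, 892 and 790 normalized counts in *penk*-/- and at 742, 760, 775 and 800 in *penk*+/+ chimeras. The *penk*+/+ values of *Znrf3* were within a narrow band (769 ± 24.6), whereas the *penk*-/- values spread on both sides of it (855 ± 115, SD, n = 4 each). Its log2 fold change was 0.14 (95% interval -0.07 to 0.36, limma adjusted p = 0.673).

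*Nkd1*, which binds Dishevelled and damps the signal inside the cell, lies on chr8:89247890-89324577 (plus strand). It was at 374, 607, 640 and 587 normalized counts in *penk*-/- and at 300, 619, 646 and 502 in *penk*+/+ chimeras. The spread within genotypes was the widest of the 10 members (CV of 21.9% and 30.5%), because replicate 1 of each genotype was far below its group. The log2 fold change was 0.12 with an interval from -0.45 to 0.70 (limma adjusted p = 0.915), the widest interval of the 10.

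*Sox9* and *Ephb2* mark identity and position within the crypt. *Sox9*, a transcription factor of the crypt base and a Wnt target, lies on chr11:112673009-112678586 (plus strand). It was at 1813, 2500, 2196 and 2377 normalized counts in *penk*-/- and at 1725, 1742, 1920 and 1858 in *penk*+/+ chimeras. The highest 3 values were all from *penk*-/- chimeras, and *penk*-/- replicate 1 was within the range of *penk*+/+. The means were 2221 ± 300 and 1811 ± 93.8 (SD, n = 4 each), with a log2 fold change of 0.29 (SE 0.10, 95% interval 0.06 to 0.51). *Sox9* did not pass the adjusted threshold by limma (0.425), edgeR (0.398) or DESeq2 (0.171), and the exact permutation test (two-sided) gave p = 0.0857. When 1 library was left out, the log2 fold change of *Sox9* was 0.22 (without *penk*-/- replicate 2) to 0.38 (without *penk*-/- replicate 1, limma adjusted p = 0.210). Only in the latter case did the groups not overlap, since it removes the 1 *penk*-/- library within the range of *penk*+/+. Without *penk*-/- replicate 2 or 4, the unadjusted limma p of *Sox9* was no longer below 0.05.

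*Ephb2*, the receptor of ephrin-B ligands whose graded level holds cells at their place along the crypt axis, lies on chr4:136374850-136563351 (minus strand). It was at 2406, 3217, 2545 and 2979 normalized counts in *penk*-/- and at 2460, 2540, 2697 and 2482 in *penk*+/+ chimeras. In 2 *penk*-/- chimeras *Ephb2* was above all *penk*+/+ values and in 1 below all of them, with a log2 fold change of 0.12 (95% interval -0.09 to 0.33, limma adjusted p = 0.716).

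**Figure D3:**
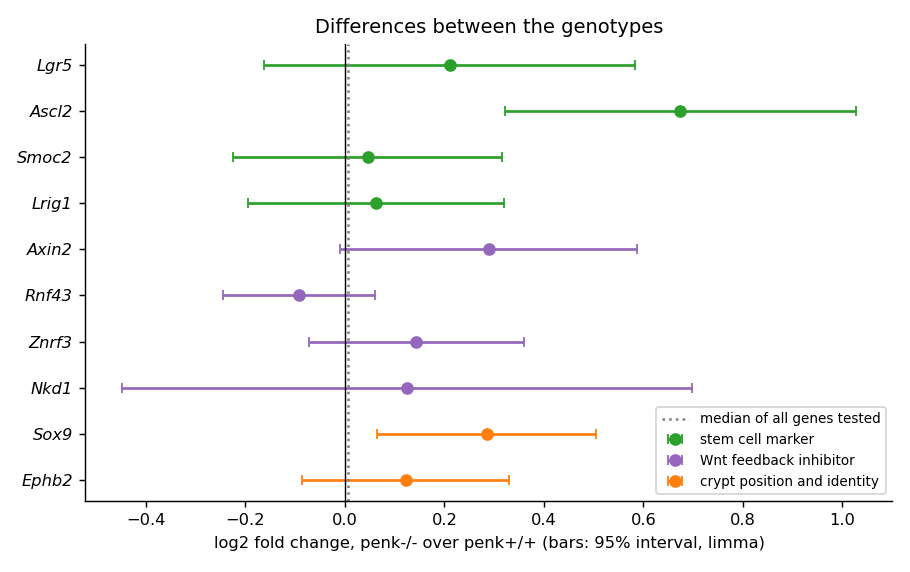
Log2 fold change of each member, *penk*-/- over *penk*+/+, with the 95% interval from limma (bars), coloured by role. The intervals of *Ascl2* (0.32 to 1.03) and *Sox9* (0.06 to 0.51) lie above 0, those of the 8 other members include 0, and the dotted line is the median of all genes tested.

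Several members moved together over the 8 libraries. *penk*-/- replicate 1 was the lowest of its group for 7 members and *penk*+/+ replicate 1 was the lowest of its group for 8. Of the 45 pairs of members, 24 had a Pearson r above 0.5 over the 8 libraries and 3 had an r below 0, with a median of 0.52. The closest pair was *Sox9* with *Ephb2* (r = 0.87). These correlations were taken over both genotypes at once, so that they include the difference between genotypes. They come from 8 libraries that each pair shares, with their depth and tissue composition. They are given as a description, with no share over other pairs of genes beside them.

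Markers of other cell types in the biopsies also varied between mice. For the counts below, 9.63% of all genes tested were at an unadjusted p below 0.05 by limma. The mean log2 level of 11 pan-epithelial markers was 0.09 lower in *penk*-/- chimeras (9 of 11 lower, 0 at an unadjusted p below 0.05 by limma, summed level 490970 to 662132 against 604775 to 712802 normalized counts). That of 9 markers of differentiated colonocytes was 0.20 lower (7 of 9 lower, 0 at that threshold, summed level 176724 to 286997 against 209440 to 315883). The 10 genes of cycling cells were 0.20 higher (9 of 10 higher, 3 at that threshold, summed level 19201 to 25032 against 15293 to 23547), and 8 fibroblast genes were 0.21 higher (8 of 8 higher, 0 at that threshold, summed level 51568 to 75987 against 41506 to 72074). Of the other 5 lists (goblet cells, smooth muscle, enteric neurons and glia, immune cells and endothelium), none differed by more than 0.15. For all 9 lists the genotypes overlapped, and no gene of these lists was at 0 in any library. The scores of 2 further lists also overlapped. That of 6 prostate and accessory gland genes differed by -0.08 (summed level 103 to 216741 against 64.4 to 223589, with *Pbsn* at 0 in libraries of both genotypes). That of 6 genes listed for Paneth cells and small intestine was 0.63 lower in *penk*-/- (5 of 6 lower, 1 at that threshold, summed level 406 to 9900 against 759 to 9825). Most of the highest sums came from *Mmp7*, at 9129 in *penk*-/- replicate 3 and 8712 in *penk*+/+ replicate 4. *Mmp7* was at 0 in *penk*-/- replicate 1 and 2.04 in *penk*+/+ replicate 3, where *Pbsn* was at 0. This score therefore does not stand for Paneth cells alone. In the latter list the defensin gene *Defa24* was at 1.01, 3.43, 10.2 and 12.2 normalized counts in *penk*-/- and at 37.3, 22.8, 32.7 and 29.2 in *penk*+/+ chimeras, with no overlap (log2 fold change -2.37, limma adjusted p = 0.339). Its part in the values of the members was not tested.

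The members differed in how far they followed these markers over the 8 libraries. *Lgr5*, *Smoc2*, *Axin2* and *Nkd1* ran against the epithelial score (r between -0.85 and -0.80) and against the colonocyte score (r between -0.91 and -0.82). *Nkd1* and *Axin2* followed the fibroblast score (r = 0.97 and 0.92), and *Lrig1* followed the cycling score (r = 0.93). *Ascl2* had an r of no more than 0.58 in size with any of the 9 scores, and *Rnf43* of no more than 0.43. Without the 2 libraries high in *Pbsn*, *Ascl2* had an r of no more than 0.47 in size, but *Rnf43* followed the scores closely, with an r of -0.77 with epithelium, -0.71 with colonocytes, 0.79 with smooth muscle, 0.82 with enteric neurons and glia and 0.80 with immune cells. *Lrig1* then had an r of -0.93 with epithelium, against -0.33 over all 8 libraries. The low values of *Rnf43* thus rest on those 2 libraries, whereas *Nkd1* and *Axin2* with fibroblasts (0.98 and 0.94) and *Lrig1* with cycling genes (0.94) were as high without them. When the epithelial score was added to the limma model as a covariate, the log2 fold change was 0.63 for *Ascl2*, 0.25 for *Sox9*, 0.18 for *Axin2* and 0.08 for *Lgr5*, while that of *Smoc2* was -0.06 and that of *Nkd1* was -0.08. The part of tissue composition in the difference between genotypes was not tested beyond this covariate. Without the 2 libraries high in *Pbsn*, the log2 fold change was 0.23 for *Axin2* and 0.30 for *Sox9*.

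**Figure D4:**
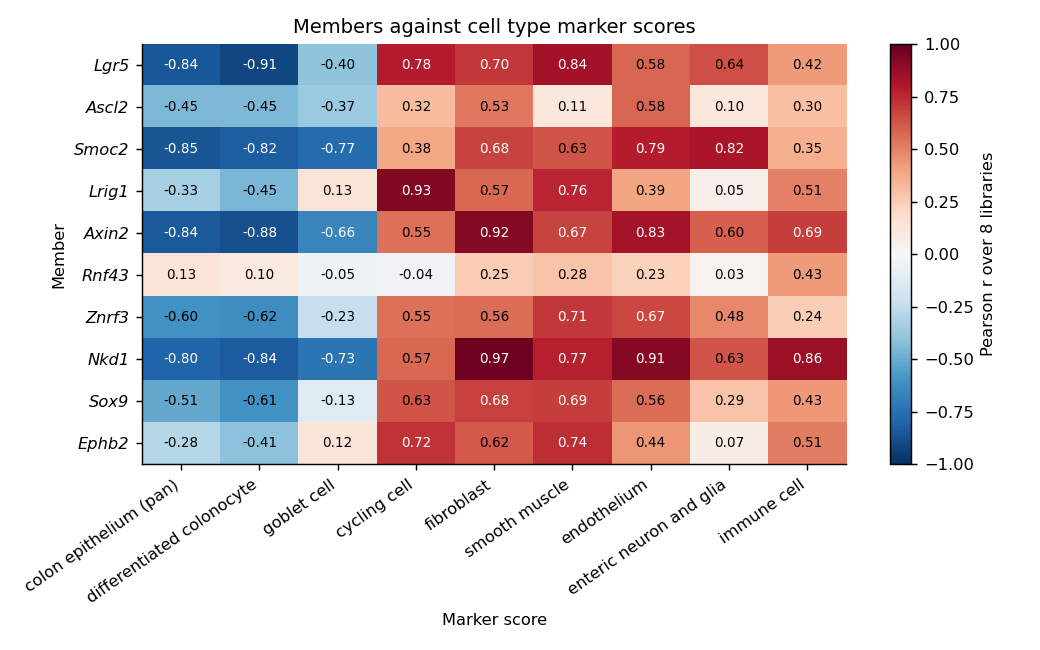
Pearson r over the 8 libraries between the log2 level of each member (rows) and the mean log2 score of each cell type marker list (columns), from -1 in blue to 1 in red. *Nkd1* and *Axin2* have their highest values with fibroblast genes (0.97 and 0.92), *Lrig1* with cycling genes (0.93), and *Rnf43* has values of no more than 0.43 in size, which reach 0.82 without the 2 libraries high in *Pbsn*.

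Ratios between genes of the same library were chosen after the values were seen and are given with no test. Per 100 *Epcam* counts, *Ascl2* was at 0.277 to 0.434 in *penk*-/- and at 0.138 to 0.230 in *penk*+/+ chimeras, with no overlap. Per 100 *Lgr5* counts, *Ascl2* was at 36.8 to 46.8 in *penk*-/- and at 18.8 to 40.7 in *penk*+/+ chimeras, so that these ranges overlapped. Between the paired ligases, *Znrf3* per 100 *Rnf43* was at 40.1 to 50.3 in *penk*-/- and at 37.4 to 39.3 in *penk*+/+ chimeras, a separation that neither *Znrf3* nor *Rnf43* showed alone. *Axin2* per 100 *Rnf43* was at 51.6 to 73.0 against 39.2 to 52.0, with an overlap between the lowest *penk*-/- and the highest *penk*+/+ chimera. The ratios of *Axin2*, *Sox9* and *Lgr5* to *Epcam* and of *Ascl2* to *Mki67* were also taken, and all of them overlapped between the genotypes.

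Of 151 other genes of the crypt and of the pathways around the members, 137 passed the filter on low values. By limma, 0 of them passed an adjusted p below 0.05, and 19 were higher and 5 lower in *penk*-/- at an unadjusted p below 0.05, against 4.3% and 5.33% of all genes tested. DESeq2 called 5 of them higher and 2 lower, where 1.23% of all genes tested were called in either direction. In 10 genes all *penk*-/- values were higher and in 4 all were lower, against 2.89% and 2.74% of all genes tested. The same shares apply to the counts of each list below. Named genes have the smallest p of their list, so that a lack of overlap follows in part from how they were picked. A named gene without a DESeq2 adjusted p printed had a value above 0.05 or no value. The log2 fold change was above 0 for 86 of the 137 (62.8%), with a median of 0.08.

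Among 18 other Wnt targets, 7 were higher and 1 lower at an unadjusted p below 0.05 by limma, against 4.3% and 5.33% of all genes tested. Their median log2 fold change was 0.18. The cyclin gene *Ccnd2* was at 11858 ± 723 against 9212 ± 898 normalized counts, with no overlap between the genotypes (log2 fold change 0.37, adjusted p = 0.339 by limma and 0.00827 by DESeq2). *Met*, the receptor of hepatocyte growth factor, was at 2240 ± 207 against 2968 ± 343, again with no overlap but in the other direction (log2 fold change -0.40, adjusted p = 0.339 by limma and 0.0189 by DESeq2). Of 18 other crypt base and stem cell genes, 3 were higher and 0 lower at that threshold, with a median of 0.12. *Cdca7*, a chromatin factor listed with the stem cell signature, was at 2512 ± 113 against 2086 ± 260 normalized counts with no overlap (log2 fold change 0.28, adjusted p = 0.408 by limma and 0.174 by DESeq2). *Cdk6*, a kinase of the cell cycle, had a log2 fold change of 0.21 (limma adjusted p = 0.451) and overlapped.

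The lists of genes upstream of the members were short, and 9.63% of all genes tested were at an unadjusted p below 0.05 by limma. No contrast with the lists above is drawn. None of 11 Wnt ligand and secretion genes and none of 4 R-spondin and receptor genes was found at an unadjusted p below 0.05 by limma. The Wnt ligand *Wnt4* had the smallest p of its list with a log2 fold change of 0.43 (means of 184 and 139 normalized counts, adjusted p = 0.591), and the R-spondin *Rspo2* of its own with -0.42 at a low level (24.2 ± 8.93 against 31.7 ± 7.57, adjusted p = 0.698). *Lgr4*, another R-spondin receptor, was at 12755 ± 1695 against 13947 ± 1338 normalized counts. Of 13 Wnt receptors, 1 was higher (*Ryk*, log2 fold change 0.13) and 1 lower (*Fzd6*, -0.19) at that threshold. Of 12 inhibitors, *Kremen1* alone was found there, with a log2 fold change of 0.25 (DESeq2 adjusted p = 0.169). The next smallest p of these lists belonged to *Wls*, which carries Wnt ligands to the cell surface (0.11 on the log2 scale), and to the inhibitor *Trabd2b* (0.27).

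Between the receptor and the nucleus, *Dvl1*, a Dishevelled protein, was the 1 gene of 14 found at that threshold (2952 ± 80.4 against 2502 ± 167 normalized counts, difference of 0.24 on the log2 scale, adjusted p = 0.339 by limma and 0.0339 by DESeq2), with no overlap. *Axin1*, the constitutive counterpart of *Axin2*, followed it in that list with a log2 fold change of 0.15. *Tcf7l2*, the main TCF factor of the intestinal epithelium, was lower in *penk*-/- chimeras with no overlap (3629 ± 524 against 4503 ± 262, log2 fold change -0.32, adjusted p = 0.399 by limma and 0.142 by DESeq2). *Pygo2*, which binds the beta-catenin complex, had a log2 fold change of 0.18. These were the 2 of 12 genes of the TCF/LEF complex found at that threshold.

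In the neighbouring pathways, 0 of 16 BMP genes were found at an unadjusted p below 0.05 by limma, with *Bmp2* at -0.25 and its target *Id1* at -0.30 on the log2 scale. Of 10 Notch genes, 4 were higher and 0 lower, against 4.3% and 5.33% of all genes tested. The Notch ligand *Jag1* was at 1007 ± 58.8 against 762 ± 95.6 normalized counts (difference of 0.41 on the log2 scale, adjusted p = 0.339 by limma and 0.0241 by DESeq2). The ligand *Dll1* was at 879 ± 101 against 709 ± 20.9 (log2 fold change 0.30, adjusted p = 0.370 by limma and 0.0783 by DESeq2). Both ligands had no overlap between the genotypes. Among 6 ErbB genes, chosen because *Lrig1* acts on these receptors, 2 were lower and 1 higher. *Erbb3* was at 16953 ± 3462 against 24771 ± 2836 normalized counts (difference of -0.57 on the log2 scale, adjusted p = 0.351 by limma and 0.0382 by DESeq2). *Erbb2* was at 8338 ± 1438 against 10871 ± 596 (log2 fold change -0.40, adjusted p = 0.388 by limma and 0.107 by DESeq2). Neither gene overlapped between the genotypes, whereas *Lrig1* itself overlapped. Of the 3 ephrin ligands of *Ephb2*, 0 were found at that threshold, with *Efnb2* at -0.15 on the log2 scale.

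**Figure D5:**
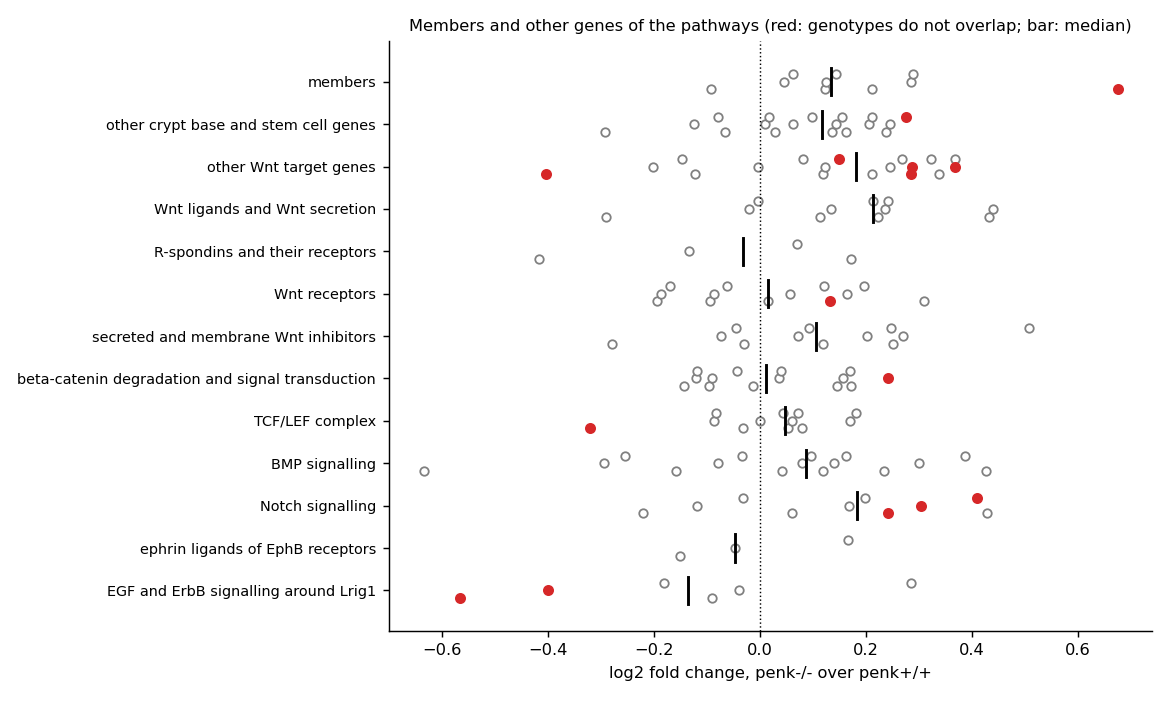
Log2 fold change, *penk*-/- over *penk*+/+, of each tested gene in the members and the 12 pathway lists, with the median of each list as a black bar and genes whose genotypes do not overlap in red. *Ascl2* is the rightmost point (0.67), the members' median is 0.13, and the ErbB list has its median below 0 (-0.14).

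The genes whose log2 levels followed each member most closely over the 8 libraries, among 14854 genes with a mean of at least 50, were of several kinds. *Lrig1* was followed by the cell division and DNA repair genes *Stil* (r = 0.99), *Fancd2* (0.99) and *Lig1* (0.98), and *Sox9* by *Cdca4* (0.98). *Nkd1* was followed by *Htra3*, *Timp2* and *Mmp23* (r of 0.99 or more), genes of the extracellular matrix and its proteases. *Ascl2* was followed by *Lsm1* (0.98), *Timm13* (0.97) and *Gsta3* (0.97), *Lgr5* by *Chn1* (0.98), *Axin2* by *Elk1* (0.99), and the mean of the 10 members by *Tuba1b* (0.99). Each is the top of many genes compared over only 8 libraries and is given as a description.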

How the data were processed

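Total RNA of 8 colonic biopsies was sequenced as stranded, paired-end, poly-A libraries. The authors checked reads with FastQC, aligned and counted them with STAR 2.7.8a on GRCm39 with Ensembl release 107, and deposited normalized counts made with DESeq2 1.30.0, read counts divided by a size factor per library (signal values, 1 per gene and mouse). All values in each library were whole multiples of a step within 0.001, so that reads could be recovered. Identifiers were matched to GENCODE M39 (25776 of 26008). No library was left out, and any pair of libraries differed by more than sampling noise (chi-square at least 11.0 times its degrees of freedom).

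The main test was limma 3.58.1 (R 4.3.3; lmFit, then eBayes with a trend, two-sided) on log2(value + 1) of the 19127 genes with a mean of at least 10, without covariates, with Benjamini-Hochberg adjustment over all of them. Log2 fold changes are on that scale, except where an alternative is named, and understate those of low genes. Values given as times as high are ratios of mean normalized counts. Exact permutation tests used the 70 assignments of 4 of 8 mice. DESeq2 1.42.0 and edgeR 4.0.16 on the recovered reads, other pseudocounts (0.5, 8), filters, quantile normalization, a replicate block, an epithelial covariate and leaving out libraries were alternatives. A marker score is the mean of log2(value + 1), centred per gene. Promoter windows ended at the canonical start site. Named pathway genes are the 2 with the smallest p in each list, or 1 in a list of 3. The members and lists were chosen with earlier results of these data known. Figures used Python 3.11.15 and matplotlib 3.10.9.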

Additional observations from a re-analysis of the deposited data

How the results depend on the processing

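Each result was recomputed under 19 alternatives, 11 of processing and 8 that left out 1 library, except the count of members whose groups do not overlap, which 9 of them can change. The number of genes at an adjusted p below 0.05 was 0 by limma, 235 by DESeq2, 1 with the epithelial score as covariate, 1 with quantile normalization and 0 to 6 when 1 library was left out (6 without *penk*-/- replicate 1). DESeq2 called 1 member, *Ascl2*, with a log2 fold change of 0.65. Over the 19 alternatives, the adjusted p of *Ascl2* was 0.0179 to 0.628 and its log2 fold change 0.58 to 0.78. Members at an unadjusted p below 0.05 numbered 1 to 4 when 1 library was left out: 4 without *penk*-/- replicate 1 or *penk*+/+ replicate 3, and 1 without *penk*-/- replicate 2 or 4. Of all genes tested, 2222 and 1739 were at that threshold in the first 2 settings, and 1480 and 1418 in the last 2. Members whose groups do not overlap numbered 1 to 3 (3 without *penk*-/- replicate 1, 2 without *penk*+/+ replicate 3). Leaving out a library can only add such genes, and their share over all genes was not computed for these settings. Directions turned for *Smoc2* (-0.055 with the epithelial covariate, -0.0080 without the 2 libraries high in *Pbsn*, -0.045 to 0.11 when 1 library was left out), *Nkd1* (-0.084 with the covariate, -0.12 to 0.30 when 1 library was left out) and *Lrig1* (-0.020 to 0.14 when 1 library was left out). The causes were not tested. In all 19 alternatives 7 to 9 members were higher in *penk*-/-, with a median log2 fold change of 0.07 to 0.25.

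The genotypes share replicate numbers, but same-numbered mice did not deviate together (correlation of deviations 0.15, -0.04, -0.32 and -0.16), so that the numbers were not taken as pairs. With the replicate block, 1 gene passed an adjusted p below 0.05, 2938 genes against 1842 and 4 members against 2 an unadjusted p below 0.05, and 39 pathway genes against 24. None of the 4 *penk*-/- libraries correlated best with its own number. With 4 mice per genotype, the median SD of the members was 0.191 on the log2 scale, and *Ascl2* had the fewest reads of the 10 (78 in its lowest library).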
